A study of Mus musculus with 28 samples.

Results

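The HoxB cluster genes were examined across all 28 libraries of polyA RNA sequencing. The members are the 10 protein-coding genes Hoxb1 to Hoxb9 and Hoxb13, taken by name from a table of 28244 genes. They lie on the + strand of mouse chromosome 11 (GRCm38), from Hoxb13 at chr11:96194316-96197447 to Hoxb1 at chr11:96365752-96368256, a span of 173.9 kb. A gap of 74.0 kb separates Hoxb13 from Hoxb9, and the other gaps between neighbouring members measure 1.31 to 12.14 kb.

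Hox genes encode homeodomain transcription factors that give cells their position along the head-to-tail axis. In each Hox cluster the order of genes on the chromosome follows the order of their expression domains, so that Hoxb1 marks the hindbrain and Hoxb13 the tail bud. Retinoic acid, Wnt and Fgf signals and Cdx factors act on the clusters in the embryo, Polycomb and Trithorax proteins keep them silent or active afterwards, and Pbx and Meis proteins bind DNA together with the Hox proteins.

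The study derived neural stem cells (NSCs) from tissues outside the central nervous system, called peripheral NSCs (pNSCs), and asked whether they resemble brain NSCs and where they come from. 5 groups carry only a tissue name, with 2 libraries each: Brain-NSC, Tail-pNSC, Lung-pNSC, Tail and Lung. Their names and numbers match the experiment with Nes-GFP reporter mice in the study's methods, but the labels do not give a reporter. The Wnt1Cre-mTmG set has 3 libraries each of brain NSCs, Tail pNSCs and DRG pNSCs (dorsal root ganglion). It also includes 3 libraries of DRG NCSCs (neural crest stem cells), which by the study came from wild-type mice. In Wnt1Cre-mTmG mice Wnt1-driven Cre turns on GFP in the progeny of neural crest, and the pNSC clusters carried Tomato and not GFP. The Sox2-GFP set, with a GFP knock-in at Sox2, has 3 libraries each of brain NSCs and lung pNSCs, and is compared with the same 2 Lung libraries. The labels give C57BL/6 as the strain of every sample, and the study's methods describe transgenic mice bred with CD1 or mixed CD1 and C3H mice. By the study's methods the tails, and the DRG of the pNSCs, came from pups of postnatal day 1 to 5, the lungs of the Nes-GFP experiment from adults of 4 to 6 weeks and the lungs of the Sox2-GFP set from pups. The age behind the Lung libraries and each group of brain NSCs is not given in the sources used here. The pNSC clusters, usually clonal, were picked by hand after 3 weeks in a medium with EGF, bFGF and B27 without vitamin A. Brain NSCs came from the whole brain, and the NCSCs from DRG of adult wild-type mice. The study calls its replicates biological, but whether they were separate animals, or cultures of the same line, is not given in the sources used here, so p-values measure only the spread between these samples.

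Total counts per library ran from 9808246 to 22637031, with the Wnt1Cre-mTmG brain NSCs and DRG pNSCs the shallowest at 9808246 to 11431445. A count of 3 in 1 library was taken as the floor of detection and corresponds to 0.131 to 0.294 CPM (reads scaled to the same library total), for counting error only. The 6 NSC markers (Sox2, Nes, Olig2, Pax6, Sox1 and Fabp7) were detected in all 8 NSC and pNSC groups, with a summed level of 4316 to 6361 CPM. In Lung the sum was 285 to 308 CPM and in Tail 86.4 to 89.3 CPM, and the DRG NCSCs had 4 of 6 markers above the floor. In DRG NCSCs the neural crest and Schwann cell markers summed to 3331 to 3436 CPM. In bulk libraries fewer cells of a type and less RNA per cell cannot be told apart.

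HoxB expression separated the tail and DRG groups from the brain NSCs and lung pNSCs. No HoxB read was counted in either Brain-NSC library or either Lung-pNSC library, and the 3 Sox2-GFP lung pNSC libraries held 0 to 2 HoxB reads each. The summed HoxB level was 254.9 to 264.9 CPM in Wnt1Cre-mTmG Tail pNSCs, 86.2 to 88.2 CPM in DRG pNSCs and 40.9 to 43.9 CPM in Tail-pNSC. The other brain NSCs held a low level, 1.10 to 1.35 CPM in the Wnt1Cre-mTmG set and 1.39 to 2.45 CPM in the Sox2-GFP set. Tail had 147.5 to 155.8 CPM, DRG NCSCs 77.2 to 87.0 CPM and Lung 57.2 to 59.2 CPM. Taking a gene as detected where every library of a group held more than 3 counts, 9 members were detected in Tail and in Wnt1Cre-mTmG Tail pNSCs, 8 in DRG pNSCs and DRG NCSCs, 7 in Lung, 6 in Tail-pNSC and 0 in Lung-pNSC, Sox2-GFP lung pNSCs and Brain-NSC.

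**Figure D1:**
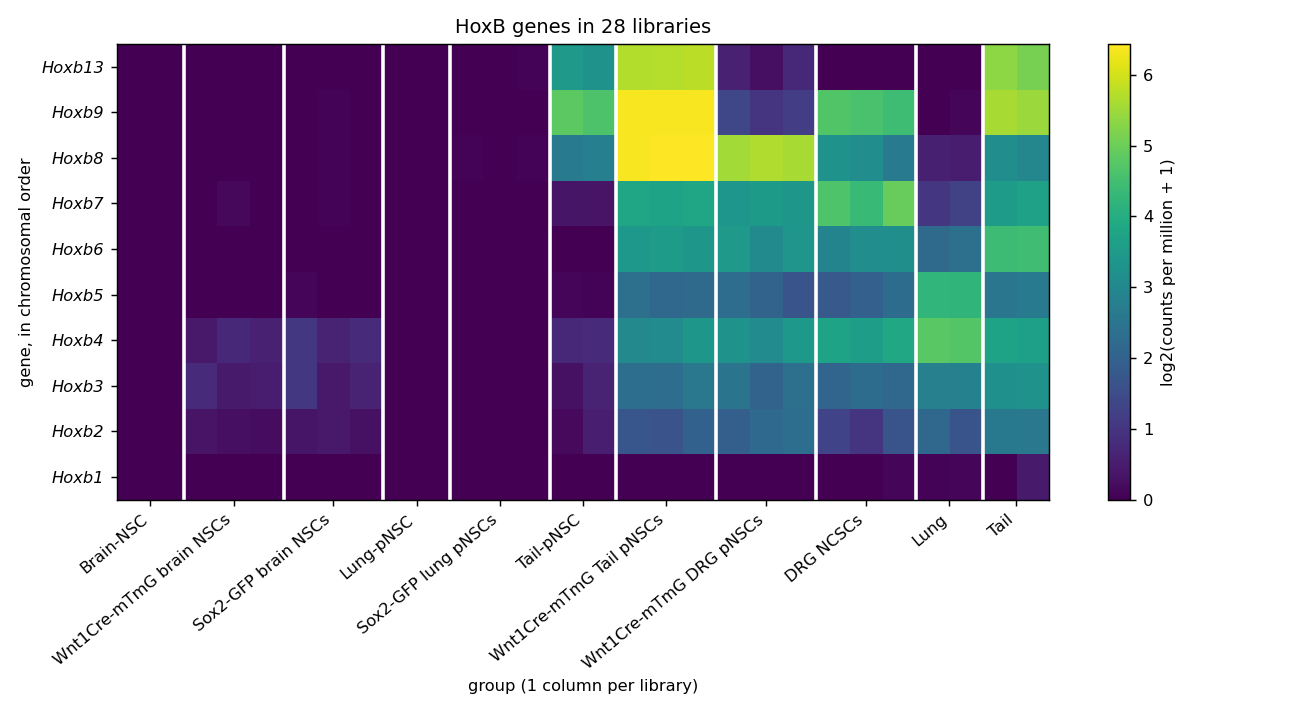
Heat map of log2(CPM + 1) for the 10 HoxB genes (rows, in chromosomal order) in the 28 libraries (columns, grouped). The Brain-NSC and Lung-pNSC columns are at 0 throughout, Hoxb8, Hoxb9 and Hoxb13 are highest in Wnt1Cre-mTmG Tail pNSCs, and Hoxb4 and Hoxb5 are highest in Lung.

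Hoxb13 and Hoxb9 are the members nearest the 5' end of the cluster. Hoxb13 restrains growth of the tail spinal cord and vertebrae, and Hoxb9 takes part in patterning of the thoracic skeleton. Hoxb13 was at 50.4, 51.8 and 53.8 CPM in the Wnt1Cre-mTmG Tail pNSCs, 9.96 and 8.91 CPM in Tail-pNSC and 39.7 and 33.7 CPM in Tail. These 3 groups did not overlap, and every other group was far below them: the DRG pNSCs had 0.507, 0.196 and 0.670 CPM, from 6, 2 and 7 reads, and no library of the 7 remaining groups had more than 1 read. Hoxb9 was at 82.1, 82.0 and 82.1 CPM in Wnt1Cre-mTmG Tail pNSCs, 47.0 and 43.1 CPM in Tail, 27.2 and 24.1 CPM in Tail-pNSC, 24.9, 23.1 and 20.5 CPM in DRG NCSCs and 1.61, 0.981 and 1.24 CPM in DRG pNSCs. In that order the ranges of Tail-pNSC and DRG NCSCs overlapped and the others did not. The remaining 6 groups had at most 1 Hoxb9 read in a library.

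Hoxb8 acts in the patterning of the spinal cord and lower trunk and in blood progenitors. Its level was 82.2, 85.3 and 85.5 CPM in Wnt1Cre-mTmG Tail pNSCs and 45.7, 49.7 and 47.1 CPM in DRG pNSCs. These were its highest groups and did not overlap. Tail (7.87 and 6.89 CPM), DRG NCSCs (8.63, 7.96 and 5.41 CPM) and Tail-pNSC (5.39 and 5.86 CPM) followed, with the DRG NCSCs overlapping both of the others. Lung had 0.478 and 0.427 CPM, and no library of the brain NSCs or lung pNSCs had more than 1 read.

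Because Hoxb8 had the highest level per kilobase in DRG pNSCs and was level with Hoxb9 in Wnt1Cre-mTmG Tail pNSCs, its promoter is shown from RefSeq (GRCm38.p6, chr11:96281655-96281954, + strand), 250 bases before to 50 after the annotated start. RefSeq promoters were matched for 3 of the 10 members (Hoxb1, Hoxb4 and Hoxb8). Capitals mark matches, on either strand, to the Cdx-type motif TTTATG, the TATA box TATAAA and the bipartite Hox-Pbx motif.
Hoxb8 promoter: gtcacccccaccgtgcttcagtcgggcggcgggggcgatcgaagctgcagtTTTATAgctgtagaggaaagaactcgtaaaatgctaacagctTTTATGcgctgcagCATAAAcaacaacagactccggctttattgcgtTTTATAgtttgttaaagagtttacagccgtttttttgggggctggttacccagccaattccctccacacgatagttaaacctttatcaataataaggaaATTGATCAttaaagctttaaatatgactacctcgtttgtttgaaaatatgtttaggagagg
The Cdx-type motif occurred 2 times, at -157 on the + strand and -143 on the - strand, the Hox-Pbx motif at -11 and the TATA box at -199 and -110 (all 3 on the - strand), with no overlap between them. Of 32851 promoters of the same length, 11.9% held the Cdx-type motif, 8.85% the Hox-Pbx motif and 13.6% the TATA box. The Hoxb8 promoter had 13 CpG and 42.3% GC, against medians of 7 CpG and 52.7% GC over all promoters. These matches describe the sequence and were not tested for binding.

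The transcript of Hoxb8 also carries a site nearly complementary to miR-196a, whose gene Mir196a-1 lies between Hoxb13 and Hoxb9. The mature miRNA (chr11:96265187-96265208, + strand, RefSeq) is shown with its seed, bases 2 to 8, in capitals, followed by the best ungapped matches in the 3' UTR of Hoxb8 (chr11:96284888-96284909) and of Hoxb7 (chr11:96289784-96289805) with the bases facing the seed in capitals.
mmu-miR-196a-5p: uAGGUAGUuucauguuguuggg
Hoxb8 site: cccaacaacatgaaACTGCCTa
Hoxb7 site: ctgtaaaaaaatatACTACCTa
The Hoxb8 site gave 21 Watson-Crick pairs and 1 G:U pair over 22 bases, with the G:U pair inside the seed. No other of 21877 genes had as many Watson-Crick pairs in its longest coding transcript. The Hoxb7 site gave 14 pairs with all 7 seed bases paired. For the other 8 members the best match gave 13 or 14 pairs. An exact seed match was present somewhere in the transcript of 4 members (Hoxb1, Hoxb6, Hoxb7 and Hoxb8), and in 16.0% of all genes. For Hoxb1, Hoxb6 and Hoxb8 it was not at the best match counted above.

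Hoxb7, Hoxb6 and Hoxb5 are central members with trunk expression domains, and Hoxb5 is also known from developing lung mesenchyme and vagal neural crest. Hoxb7 was highest in the DRG NCSCs, at 24.4, 19.5 and 29.7 CPM. It reached 12.8, 12.3 and 12.8 CPM in Wnt1Cre-mTmG Tail pNSCs, 10.5 and 11.9 CPM in Tail, 9.39, 10.4 and 9.67 CPM in DRG pNSCs, 1.01 and 1.40 CPM in Lung and 0.290 and 0.255 CPM in Tail-pNSC. None of these neighbouring ranges overlapped. Hoxb6 stood at 20.3 and 21.2 CPM in Tail and 3.66 and 4.21 CPM in Lung. Between them the Wnt1Cre-mTmG Tail pNSCs (9.54 to 10.6 CPM), DRG pNSCs (7.36 to 9.98 CPM) and DRG NCSCs (6.53 to 8.23 CPM) overlapped from one to the next. No Hoxb6 read was counted in Tail-pNSC. Hoxb5 was highest in Lung, at 17.993 and 17.6 CPM, against 4.74 and 5.29 CPM in Tail. It was at 2.2018 to 4.21 CPM in the Wnt1Cre-mTmG Tail pNSCs and DRG pNSCs and the DRG NCSCs. Each Tail-pNSC library had 1 Hoxb5 read.

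Hoxb4, Hoxb3, Hoxb2 and Hoxb1 are the members nearest the 3' end and pattern the hindbrain. Hoxb4 also promotes the expansion of blood stem cells, and Hoxb1 specifies a single hindbrain segment. Hoxb4 was highest in Lung, at 26.5 and 25.3 CPM, followed by DRG NCSCs with 12.2, 11.005 and 13.6 CPM and Tail with 12.3 and 11.4 CPM, which overlapped. The DRG pNSCs (8.79, 7.65 and 9.86 CPM) and Wnt1Cre-mTmG Tail pNSCs (7.13, 7.54 and 9.59 CPM) overlapped as well. Sox2-GFP brain NSCs (1.05, 0.566 and 0.696 CPM), Tail-pNSC (0.637 and 0.713 CPM) and Wnt1Cre-mTmG brain NSCs (0.357, 0.675 and 0.506 CPM) lay far lower and overlapped. Hoxb3 had means of 8.58 CPM in Tail, 6.02 CPM in Lung and 3.50 to 4.27 CPM in the Wnt1Cre-mTmG Tail pNSCs, DRG pNSCs and DRG NCSCs. Hoxb2 had means of 5.00 CPM in Tail, 3.51 CPM in DRG pNSCs, 2.85 CPM in Lung, 2.48 CPM in Wnt1Cre-mTmG Tail pNSCs and 1.52 CPM in DRG NCSCs. Hoxb3 and Hoxb2 were at most 1.05 CPM in every Tail-pNSC and brain NSC library. Hoxb1 was not detected in any group by the rule above: it had 0 and 6 reads in Tail, 1 and 1 in Lung, 0, 0 and 1 in DRG NCSCs and 0 in all other libraries.

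The promoter of Hoxb4 (RefSeq, GRCm38.p6, chr11:96318017-96318316, + strand) is shown beside that of Hoxb8 because Hoxb4, highest in Lung, had another order of groups. Capitals mark a match to the core motif of retinoic acid receptors, AGGTCA, searched on both strands.
Hoxb4 promoter: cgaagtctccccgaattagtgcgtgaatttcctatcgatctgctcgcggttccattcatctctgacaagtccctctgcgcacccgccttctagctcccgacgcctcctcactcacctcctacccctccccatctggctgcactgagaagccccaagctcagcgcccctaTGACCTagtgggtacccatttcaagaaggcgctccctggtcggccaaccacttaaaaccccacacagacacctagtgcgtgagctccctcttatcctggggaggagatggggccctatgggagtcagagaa
The motif lay at -81 on the - strand and was present in 16.3% of the 32851 promoters. The Hoxb4 promoter had 14 CpG and 58.0% GC, and no match to the Cdx-type, Hox-Pbx or TATA motif in this window.

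Levels of different members were compared per kilobase of annotated exon. Hoxb9 led in Tail-pNSC with 58.6% of the summed level per kb and in Tail with 27.0%. Hoxb8 led in DRG pNSCs with 50.014%. In Wnt1Cre-mTmG Tail pNSCs Hoxb8 with 29.9% and Hoxb9 with 29.8% were level, and their order differed between the libraries. Hoxb7 led in DRG NCSCs with 41.2% and Hoxb4 in Lung with 46.5%. The ratio of Hoxb9 to Hoxb8 per kb was 4.21 to 5.16 in Tail-pNSC, 0.983 to 1.02 in Wnt1Cre-mTmG Tail pNSCs, 6.12 to 6.40 in Tail and 2.95 to 3.88 in DRG NCSCs. In the DRG pNSCs it was reversed, with Hoxb8 27.8 to 49.5 times the level of Hoxb9. The ratio of Hoxb8 to Hoxb7 per kb was 2.80 to 2.86 in DRG pNSCs but 0.107 to 0.239 in DRG NCSCs, and 3.77 to 4.07 in Wnt1Cre-mTmG Tail pNSCs but 0.340 to 0.437 in Tail. The ranges of these ratios did not overlap between the groups set against each other.

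**Figure D2:**
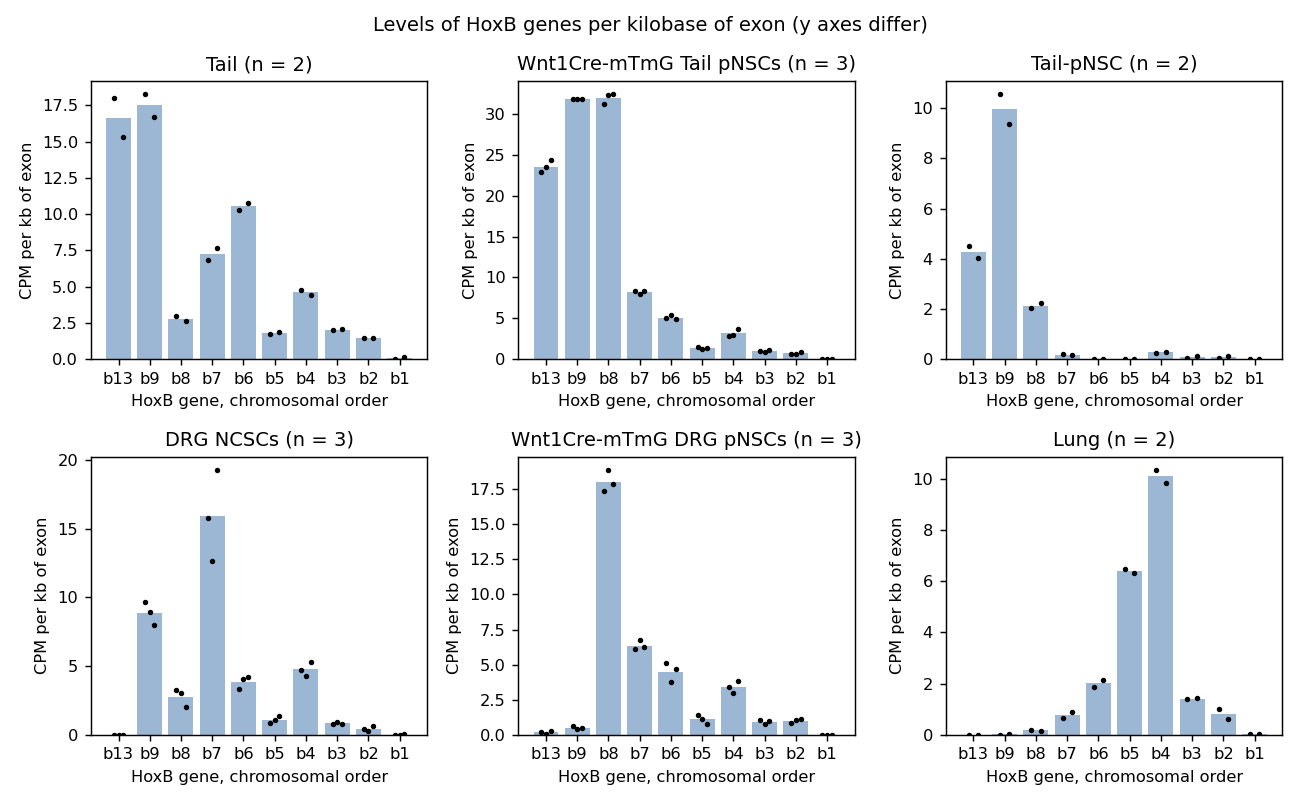
HoxB levels in CPM per kilobase of exon along the cluster, from Hoxb13 (left) to Hoxb1 (right), in 6 groups. Bars are group means from 0, points are single libraries, and each panel has its own axis. The profile peaks at Hoxb9 in Tail and Tail-pNSC, at Hoxb8 in DRG pNSCs, at Hoxb7 in DRG NCSCs and at Hoxb4 in Lung, and Hoxb8 and Hoxb9 are level in Wnt1Cre-mTmG Tail pNSCs.

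The first comparison asked how pNSCs differ from brain NSCs among the groups labelled by tissue only. A gene was called at an adjusted p under 0.05 and at least 1 on the log2 scale, over all genes tested by edgeR's quasi-likelihood test. In Tail-pNSC against Brain-NSC, 7 members were higher (Hoxb2, Hoxb3, Hoxb4, Hoxb7, Hoxb8, Hoxb9 and Hoxb13), where 4.31% of the 16948 tested genes were called higher. With Brain-NSC at 0, folds are lower bounds against 3 counts per library: Hoxb9 was at least 173.5-fold higher (edgeR, adjusted p = 3.29e-205), Hoxb13 at least 63.9-fold (adjusted p = 2.27e-82) and Hoxb8 at least 38.1-fold (adjusted p = 3.44e-44). The bounds for Hoxb4 (at least 4.57-fold), Hoxb3 (at least 2.68-fold), Hoxb2 (at least 1.94-fold) and Hoxb7 (at least 1.84-fold) rested on 2 to 14 reads per Tail-pNSC library. Hoxb2 had 2 reads in 1 of them and 9 in the other, and without the latter it did not pass (edgeR, adjusted p = 0.12). In a fit of only the 2 groups, Hoxb2, Hoxb3 and Hoxb7 had too few reads to be tested and 4 members were called. Hoxb5, with 1 read per library, did not pass (edgeR, adjusted p = 0.208), and Hoxb6 had no read in either group.

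Between Lung-pNSC and Brain-NSC, where 8.71% of genes were called in either direction, a difference in HoxB could not be tested, since every library of both groups was at 0 for all 10 members. A HoxB level was not detectable in either group at this depth. Against Lung-pNSC, Tail-pNSC was higher for the same 7 members, where 5.00% of genes were called higher. Both comparisons rest on the same Tail-pNSC libraries, and where tail cells came from pups and lung cells from adults, tissue and age cannot be told apart. The Sox2-GFP lung pNSCs were also near 0, but their brain NSCs were not: 3 members were lower in Sox2-GFP lung pNSCs than in Sox2-GFP brain NSCs, where 9.99% of genes were called lower. Hoxb4 was at least 5.60-fold lower (edgeR, adjusted p = 7.43e-14), Hoxb3 at least 4.65-fold (adjusted p = 6.43e-11) and Hoxb2 at least 2.11-fold (adjusted p = 9.09e-06). These are the members that the Sox2-GFP brain NSCs held at a low level, and only Hoxb4 had enough reads to be tested in a fit of the 2 groups alone. In this set Hoxb1, Hoxb8, Hoxb9 and Hoxb13 had too few reads to be tested.

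The pNSC groups were then set against the Tail or Lung libraries, which belong to the tissue-labelled set. In these comparisons the median of all genes lay at -0.16 to -0.10 on the log2 scale. In Tail-pNSC, 7 members were lower than in Tail, where 32.6% of genes were called lower. The largest differences were in the centre of the cluster: Hoxb6 was at least 126.9-fold lower, Hoxb5 92.3-fold lower (95% counting interval 25.1 to 768) and Hoxb7 41.2-fold lower. Hoxb3 was 21.7-fold, Hoxb4 17.5-fold and Hoxb2 17.4-fold lower. The members at the 5' end differed less. Hoxb13 was 3.89-fold lower (log2 -2.07 ± 0.11 SE, edgeR adjusted p = 7.73e-73), and Hoxb9 (-0.92 ± 0.09, adjusted p = 3.23e-25) and Hoxb8 (-0.50 ± 0.19, adjusted p = 0.0127) were lower but under the fold limit. Tail held 72045 to 73498 CPM of 5 mesenchyme markers (Col1a1, Col1a2, Col3a1, Dcn and Lum) and Tail-pNSC 2.14 to 2.90 CPM, with 1 of 5 above the floor. Keratin genes Krt5 and Krt14 were at 0 in Tail-pNSC, and the skin list in Tail summed to 4459 to 4542 CPM. The part of these tissue cells in the HoxB differences was not tested.

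In Lung-pNSC, 7 members (Hoxb2 to Hoxb8) were lower than in Lung, where 34.9% of genes were called lower. Hoxb4 was at least 167.0-fold lower (edgeR, adjusted p = 1.12e-187), Hoxb5 at least 114.6-fold (adjusted p = 1.20e-125) and Hoxb3 at least 38.8-fold (adjusted p = 1.73e-48). For Hoxb6, Hoxb2, Hoxb7 and Hoxb8 the lower bounds were 25.4-fold, 18.4-fold, 7.77-fold and 2.92-fold. All Lung libraries were above all Lung-pNSC libraries for these 7 members. That order follows from Lung-pNSC being at 0 and is no further support. Sox2-GFP lung pNSCs, set against the same Lung libraries, had 6 members lower, where 34.9% of genes were called lower in that set too, with Hoxb4 at least 188.2-fold and Hoxb5 at least 129.2-fold lower. Lung held 25024 to 25536 CPM of 5 lung epithelium markers and 3610 to 3702 CPM of the mesenchyme markers. The lung pNSC libraries of both sets had at most 0.176 CPM and 1.98 CPM of them. Their part in the difference was not tested. The Sox2-GFP lung pNSCs came from pups of another set than Lung, and the age behind Lung is not given. Cell state, set, any difference in reporter and age therefore cannot be told apart there.

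Between Tail and Lung, 5 members were higher in Tail (Hoxb6, Hoxb7, Hoxb8, Hoxb9 and Hoxb13), where 20.5% of genes were called higher, and 2 were lower (Hoxb4 and Hoxb5), where 22.9% were called lower. Hoxb4 fell by 1.10 ± 0.12 (SE) on the log2 scale and Hoxb5 by 1.80 ± 0.16, and Hoxb6 differed by 2.43 ± 0.16, Hoxb7 by 3.25 ± 0.25 and Hoxb8 by 4.04 ± 0.32. Hoxb2 (0.82 ± 0.25) and Hoxb3 (0.54 ± 0.19) were higher in Tail but under the fold limit. In Lung, Hoxb13 had no read and Hoxb9 had 0 and 1. Tails came from pups and the age behind Lung is not given, so a part of age in these differences cannot be told apart from tissue.

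In the Wnt1Cre-mTmG set the question was whether pNSCs without the neural crest label still differ from brain NSCs and from NCSCs. All 9 tested members were higher in Tail pNSCs than in brain NSCs, where 9.16% of the 14448 tested genes were called higher, and all 9 were higher in DRG pNSCs, where 3.12% were. Hoxb8 was at least 312.4-fold higher in Tail pNSCs and at least 176.1-fold in DRG pNSCs. Hoxb4 was 15.8-fold and 17.1-fold higher, Hoxb3 8.43-fold and 7.84-fold, and Hoxb2 11.8-fold (95% counting interval 5.58 to 29.7) and 16.6-fold (7.81 to 42.3). Hoxb9 was at least 304.1-fold and Hoxb13 at least 192.7-fold higher in Tail pNSCs, but at least 4.73-fold and 1.70-fold in DRG pNSCs. The Hoxb13 call in DRG pNSCs rests on 6, 2 and 7 reads against 0, under the rule for detection. DRG NCSCs had 8 members higher than the brain NSCs, where 22.1% of genes were called higher, and Hoxb13 was at 0 in both. The 3 comparisons share the brain NSC libraries. The NCSCs came from wild-type mice, so cell type and genotype cannot be told apart in the last of them.

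Tail pNSCs and DRG pNSCs differed at the 5' end of the cluster. 2 members were higher in Tail pNSCs, where 10.4% of genes were called higher: Hoxb9 by 64.3-fold (log2 5.96 ± 0.12 SE, edgeR adjusted p = 1.59e-15) and Hoxb13 by 113.6-fold (log2 6.77 ± 0.16, adjusted p = 3.33e-13). Hoxb8 was 1.77-fold higher (log2 0.81 ± 0.08, edgeR adjusted p = 2.94e-07) and so under the fold limit, though its groups did not overlap. Hoxb7 differed by 0.35 ± 0.15 on the log2 scale (edgeR, adjusted p = 0.0479). From Hoxb6 to Hoxb2 the log2 differences lay between -0.51 and 0.27, with SEs of 0.13 to 0.23, and none passed (edgeR, adjusted p from 0.0616 to 0.720). The step in the fold change lay between Hoxb8 and Hoxb9. The 5 mesenchyme markers moved with this comparison: they summed to 375 to 388 CPM in Tail pNSCs, with all 5 above the floor, and to 15.3 to 17.0 CPM in DRG pNSCs, with 2 of 5. Their part in the Hoxb9 and Hoxb13 differences was not tested.

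The pNSCs were also set against the DRG NCSCs, a neural crest stem cell from adult ganglia, where the DRG pNSCs came from pups. The NCSCs came from wild-type mice and the pNSCs from Wnt1Cre-mTmG mice, so cell type, age and genotype cannot be told apart. Tail pNSCs had 3 members higher, where 15.3% of genes were called higher: Hoxb8 by 11.5-fold, Hoxb9 by 3.59-fold and Hoxb13 by at least 339.7-fold. Hoxb7 was lower by 0.96 ± 0.12 on the log2 scale (edgeR, adjusted p = 7.06e-07), just under the fold limit, and passed it with DESeq2, with RLE scaling and with a stricter filter. DRG pNSCs against DRG NCSCs had 3 members higher, where 15.1% of genes were called higher, and 2 lower, where 23.3% were. Hoxb8 was 6.48-fold higher (log2 2.68 ± 0.10, edgeR adjusted p = 1.14e-12), Hoxb2 2.30-fold higher and Hoxb13 at least 2.99-fold higher on 2 to 7 reads. Hoxb2 fell under the fold limit without DRG NCSC replicate 2 (0.97 on the log2 scale). Hoxb9 was 17.9-fold lower (log2 -4.14 ± 0.14, edgeR adjusted p = 2.49e-13) and Hoxb7 2.50-fold lower (log2 -1.31 ± 0.14, adjusted p = 1.07e-07). The mesenchyme markers summed to 2805 to 3460 CPM in DRG NCSCs, above both pNSC groups, and their part was not tested. DRG NCSC replicate 3 stood furthest from its group, with Hoxb8 at 5.41 CPM against 8.63 and 7.96 CPM.

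**Figure D3:**
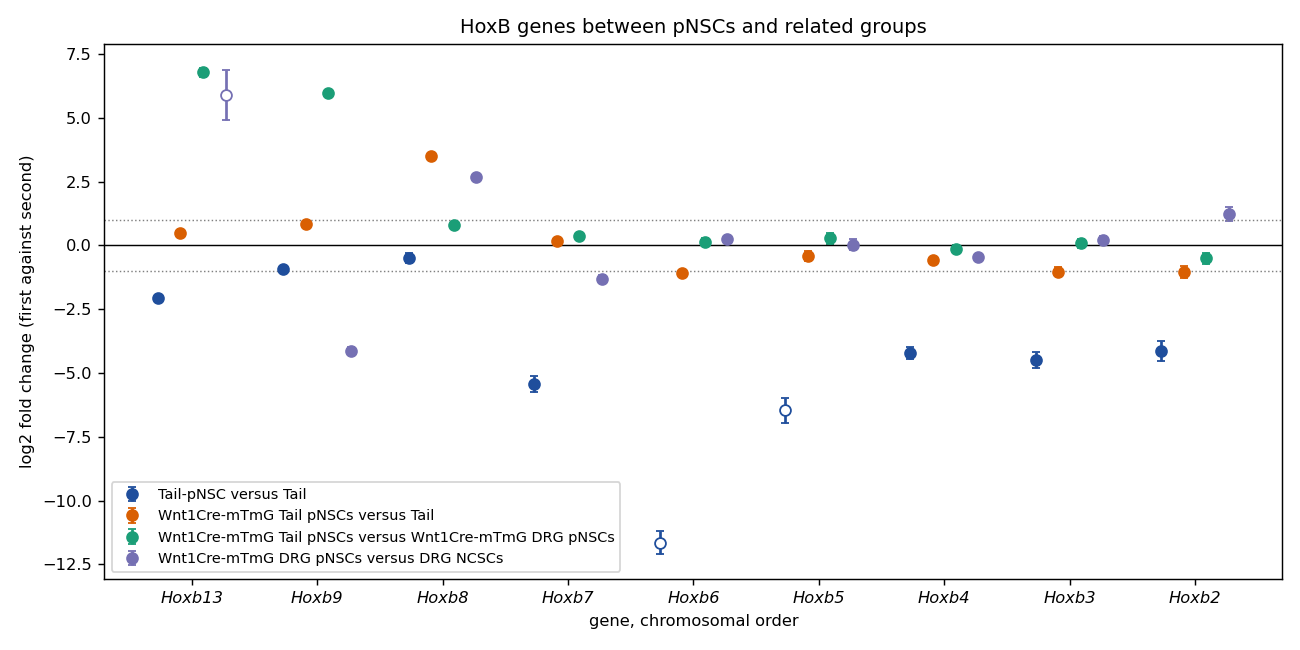
Fitted log2 fold changes (y axis, first group against second) with their standard errors for the 9 tested HoxB genes (x axis, chromosomal order) in 4 comparisons. Open symbols mark genes with 0 to 3 reads in total in 1 group, whose fitted value is no bound, and dotted lines mark the fold limit. Hoxb9 and Hoxb13 are far above the limit in Tail pNSCs against DRG pNSCs, Hoxb6 to Hoxb2 are near 0 there, and Hoxb8 is far above it in Tail pNSCs against Tail.

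The pNSCs labelled as from tail in the 2 sets did not have the same HoxB levels. Compared directly in a fit of all 28 libraries, 9 members were higher in Wnt1Cre-mTmG Tail pNSCs than in Tail-pNSC, where 13.7% of 17393 genes were called higher. The difference was least at the 5' end, 3.20-fold for Hoxb9 (log2 1.68 ± 0.08 SE, edgeR adjusted p = 1.15e-18) and 5.51-fold for Hoxb13, and 14.999-fold for Hoxb8. Hoxb7 was 46.4-fold, Hoxb6 at least 61.0-fold and Hoxb5 70.0-fold higher (95% counting interval 19.2 to 581). Hoxb4, Hoxb3 and Hoxb2 were 12.0-fold, 10.8-fold and 8.64-fold higher. The set and the line differ together here, so they cannot be told apart. The 5 mesenchyme markers moved with these values too, from 2.14 to 2.90 CPM and 1 of 5 above the floor in Tail-pNSC to 375 to 388 CPM and 5 of 5 in Wnt1Cre-mTmG Tail pNSCs. Their part in the result was not tested. Against Tail itself, Wnt1Cre-mTmG Tail pNSCs had 1 member higher, Hoxb8 by 11.4-fold (log2 3.49 ± 0.10, edgeR adjusted p = 2.15e-25), where 15.9% of genes were called higher. Hoxb9 (0.84 ± 0.07) and Hoxb13 (0.48 ± 0.08) were higher under the fold limit. Tail belongs to the tissue-labelled set, so set and cell state cannot be told apart in this comparison. A further 3 members (Hoxb2, Hoxb3 and Hoxb6) were 2.01-fold to 2.08-fold lower, where 29.9% of genes were called lower, with Hoxb2 and Hoxb3 under the fold limit when Wnt1Cre-mTmG Tail pNSC replicate 1 or 2 was left out.

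The planned test set the difference between tail pNSCs and brain NSCs in the Wnt1Cre-mTmG set against that in the tissue-labelled set, and called no member. It gave -1.93 ± 1.65 (SE) on the log2 scale for Hoxb2, -2.83 ± 1.65 for Hoxb3 and -2.64 ± 1.57 for Hoxb4, with edgeR adjusted p from 0.166 to 0.375. These signs are opposite to those of the direct comparison. The Wnt1Cre-mTmG brain NSCs held 2 to 8 reads of these members per library and Brain-NSC held none, and a fitted value against a group at 0 is no bound. For the other 6 tested members the standard errors were 16.2 or more on the log2 scale. In the same test of the lung pNSCs, where 2 groups were at 0, no member gave a difference that can be read.

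Sox2-GFP brain NSCs differed from Brain-NSC at the 3' end of the cluster. Against Brain-NSC, Sox2-GFP brain NSCs were higher for 3 members (Hoxb2, Hoxb3 and Hoxb4), where 11.9% of genes were called higher, with Hoxb4 at least 5.22-fold, Hoxb3 at least 4.33-fold and Hoxb2 at least 1.97-fold higher. These calls rested on 4 to 18 reads per Sox2-GFP library against 0. Between Sox2-GFP and Wnt1Cre-mTmG brain NSCs no member was called, where 15.5% of genes were called either way. No member had an unadjusted p under 0.05 there with edgeR, and DESeq2 called 0. Hoxb4 differed by 0.54 ± 0.43 (SE) on the log2 scale (edgeR, adjusted p = 0.304), an error that leaves room for a difference past the fold limit. In both comparisons the set, the line and any difference in reporter or age go together and cannot be told apart. Wnt1Cre-mTmG brain NSCs and Brain-NSC were not tested against each other.

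The other Hox clusters did not follow HoxB in every group. In Brain-NSC, 7 of 11 HoxA genes were detected at a summed 36.7 to 39.8 CPM while all HoxB, HoxC and HoxD genes were under the floor. In Lung-pNSC 8 HoxA genes were detected at 79.0 to 80.4 CPM and in Sox2-GFP lung pNSCs 7 at 83.7 to 84.9 CPM, and of the other clusters only Hoxd8 was detected, in Lung-pNSC. HoxA genes were thus present in both lung pNSC groups, at 0 to 0.0879 CPM of HoxB. Tail-pNSC had 10 HoxA and 5 HoxD genes detected but 0 HoxC genes, with 77.7 to 78.2 CPM of HoxA, 72.3 to 74.0 CPM of HoxD and at most 0.0579 CPM of HoxC. DRG pNSCs had the highest HoxA sum, 399 to 404 CPM, and 9 of 9 HoxC genes at 95.032 to 96.6 CPM. In Wnt1Cre-mTmG Tail pNSCs the HoxB sum was the highest of the 4 clusters, beside 102.8 to 106.2 CPM of HoxA, 102.0 to 105.8 CPM of HoxD and 4.72 to 6.01 CPM of HoxC.

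**Figure D4:**
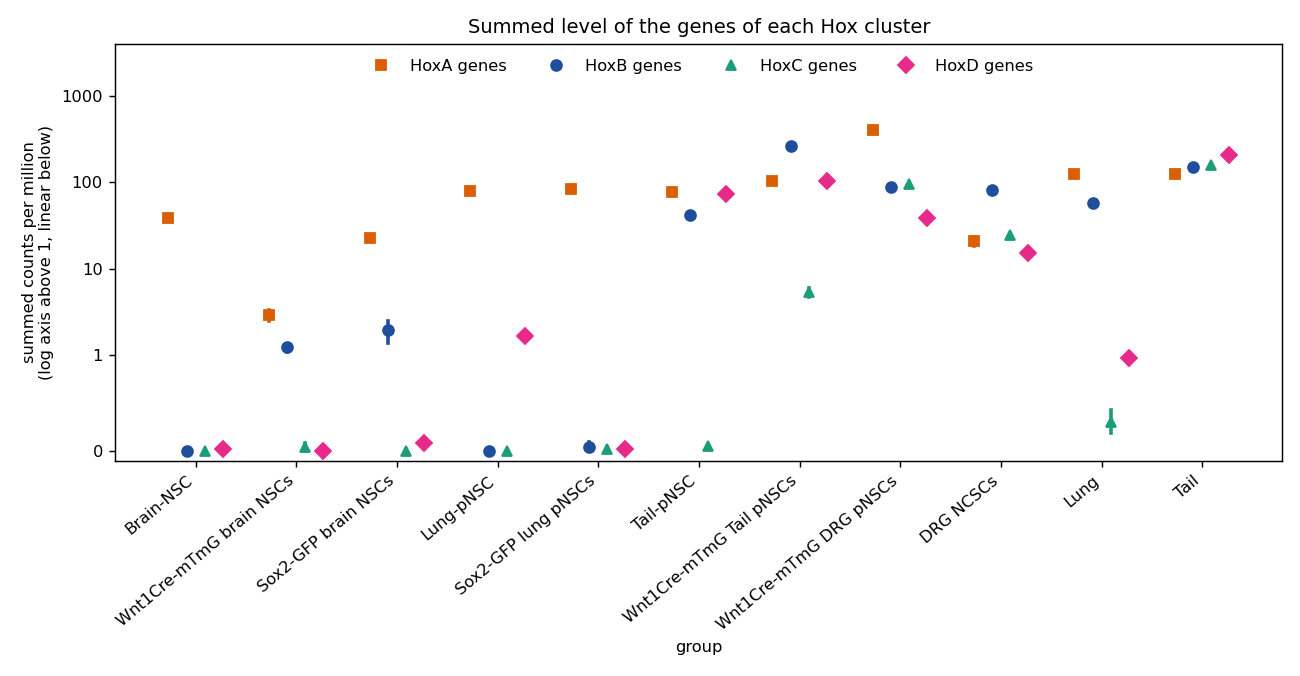
Summed CPM of the genes of each Hox cluster by group (y axis logarithmic above 1 and linear below, lines span the lowest to highest library, symbols mark their midpoint). HoxB is at 0 in Brain-NSC and Lung-pNSC where HoxA is at 36.7 to 80.4 CPM, and HoxB lies above the other clusters in Wnt1Cre-mTmG Tail pNSCs and DRG NCSCs.

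Of the 29 other Hox genes, 12 of 27 tested were higher in Tail-pNSC than in Brain-NSC and 0 lower, with a median log2 difference of 1.68 against 0.00 over all genes. Of all 16948 tested genes, 731 were called higher and 1117 lower there. In Lung-pNSC 6 of the other Hox genes were higher and 0 lower than in Brain-NSC, with a median of 0.00 as over all genes. Of all 16948 tested genes, 773 were called higher and 703 lower there. In Tail pNSCs against DRG pNSCs 8 of 26 other Hox genes were higher and 14 lower, with a median of -1.38 against 0.01. Of all 14448 tested genes, 1497 were called higher and 1099 lower there. The 4 other Hox genes with the highest mean level over all libraries were Hoxa5, Hoxa9, Hoxd8 and Hoxa7. Hoxa5, which is needed for lung development, was at 34.2 ± 0.429 CPM (SD, n = 2) in Lung-pNSC, 16.1 ± 1.64 CPM in Brain-NSC and 79.7 ± 2.47 CPM in Lung. Hoxa9 was at 128 ± 2.10 CPM (SD, n = 3) in DRG pNSCs and 22.9 ± 0.909 CPM in Wnt1Cre-mTmG Tail pNSCs, the reverse of the order of its HoxB paralogue Hoxb9. Hoxa7 had the same direction, with 73.2 ± 5.43 CPM in DRG pNSCs and 3.02 ± 0.499 CPM in Tail pNSCs. Hoxd8 was at 42.3 ± 0.366 CPM in Tail-pNSC and 39.1 ± 0.709 CPM in Wnt1Cre-mTmG Tail pNSCs, and did not pass between them (edgeR, log2 -0.12 ± 0.06, adjusted p = 0.116).

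The count table also holds 4 non-coding genes inside the cluster. Reads on the hairpin of Mir196a-1 numbered 46 and 60 in Tail-pNSC, 70, 36 and 71 in Wnt1Cre-mTmG Tail pNSCs, 34 and 25 in Tail and 2, 3 and 2 in DRG NCSCs. It had no read in any brain, lung or DRG pNSC library. These are reads of polyA RNA over the locus, not of the mature miRNA, whose sequence is printed above. Mir196a-1 was at least 19.4-fold higher in Tail-pNSC than in Brain-NSC (edgeR, adjusted p = 1.90e-21), and its groups with reads are those with at least 8.91 CPM of Hoxb13 plus the DRG NCSCs. The antisense genes Hoxb5os, over Hoxb5 and Hoxb6, and Hoxb3os, over Hoxb3 and Hoxb2, had 40 to 53 and 29 to 44 reads in Wnt1Cre-mTmG Tail pNSCs but 0 and 1 in each Tail-pNSC library. The strand setting of the counting and its handling of reads over overlapping genes were not stated. Counts of Hoxb2, Hoxb3, Hoxb5 and Hoxb6 may therefore include reads of these partners or lack reads shared with them, which cannot be told apart. Hoxb4 overlaps Hoxb3 on the same strand in the RefSeq annotation, so its counts carry a like limit. Mir10a, the other miRNA gene, had at most 2 reads in any library.

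Of the 6 genes flanking the cluster, 0 were called in Tail-pNSC against Brain-NSC with edgeR, where 1848 of the 16948 tested genes were called either way. Calcoco2 and Skap1 had no read in these libraries and Ttll6 at most 1, so these genes could not have been called. With so few genes the count cannot show whether the HoxB differences end at the cluster. Atp5g1 (log2 0.23 ± 0.06 SE, adjusted p = 0.000116) and Cbx1 (0.18 ± 0.04, adjusted p = 2.69e-05) passed the test there but were under the fold limit. In Wnt1Cre-mTmG Tail pNSCs against Tail-pNSC, where 13.7% of genes were called higher, Ttll6, a tubulin polyglutamylase, was called higher (log2 2.73 ± 1.02 SE, edgeR adjusted p = 0.0212). This call rested on 4 to 5 reads per library against 0 and 1. The other 5 were not called, and Calcoco2 and Skap1 again had at most 1 read per library. Atp5g1, a subunit of ATP synthase, Snx11, a sorting nexin, and Cbx1, a heterochromatin protein, were detected in every group. Ttll6 was at most 0.233 CPM in every NSC, pNSC and NCSC library, against 12.6 and 13.2 CPM in Lung.

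Genes that act with or on Hox genes were counted from lists. Of 9 cofactors, 0 were called in Tail-pNSC against Brain-NSC with edgeR (median log2 difference 0.20 against 0.00 over all genes). Meis2 was lower in Lung-pNSC (log2 -2.00 ± 0.07, edgeR, adjusted p = 9.74e-176). Of 17 chromatin regulators, which include Ezh2 and Suz12 of Polycomb repressive complex 2 and Kmt2a of the Trithorax group, 0 were called in either of the 2 pNSC groups against Brain-NSC, in Tail pNSCs against DRG pNSCs or in Wnt1Cre-mTmG Tail pNSCs against Tail-pNSC. Small differences passed without the fold limit, such as Ezh2 in Tail-pNSC against Brain-NSC (log2 0.34 ± 0.04, edgeR, adjusted p = 3.09e-19). Of 16 upstream regulators, 11 could be tested in the tissue-labelled set. Rarg, a retinoic acid receptor, was higher in Tail-pNSC than in Brain-NSC (log2 1.52 ± 0.15, edgeR, adjusted p = 6.65e-24). Cyp26b1, which degrades retinoic acid, was higher in Lung-pNSC than in Brain-NSC (7.34 ± 0.21, edgeR, adjusted p = 2.83e-265). Rara, another receptor, was higher in Wnt1Cre-mTmG Tail pNSCs than in Tail-pNSC (2.42 ± 0.09, edgeR, adjusted p = 3.24e-23) and than in DRG pNSCs (2.51 ± 0.10, adjusted p = 3.46e-13).

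Across the 11 group means, on the log2(CPM + 1) scale, the genes most like 3 of the members were sought among 7684 genes. By Pearson's r, Hoxb8 was most like Hoxa10 (0.95), Tshz2 (0.90) and Hoxa9 (0.89), and Hoxb13 most like Hoxd10 (0.98), Adamts3 (0.94) and Magel2 (0.93). Hoxb4 was most like Tgfb1i1, Col3a1 and Gpx1 (each 0.92). By Spearman's rho the nearest were Hoxd4 for Hoxb8 (0.92), Elovl3 for Hoxb13 (0.88) and Ifi35 for Hoxb4 (0.98). The groups share sets, tissues and depth, so the values describe these 11 groups and are no test.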

How the data were processed

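Single-end polyA RNA sequencing of 28 mouse libraries was analysed from the read counts per gene that the authors deposited in 1 table. The authors aligned reads with HISAT2 to GRCm38, used Cufflinks for the annotation and counted with htseq-count. Strand use in counting is not given in the sources used here, and the libraries were not pooled. Groups were taken from the labels.

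Counts were analysed in R 4.3.3 with edgeR 4.0.16 (TMM scaling, filterByExpr with a minimum count of 10 and a minimum total of 15, quasi-likelihood test, Benjamini-Hochberg adjustment over all tested genes). Each set was fitted with all of its groups, the Sox2-GFP set together with Lung, and comparisons across sets used 1 fit of all 28 libraries. A gene was called at an adjusted p under 0.05 and a log2 fold change of at least 1. CPM were computed with TMM scaling over all 28 libraries, and per kb divides by the exon length in GENCODE M21. Printed folds are ratios of mean CPM. A group with no read was set to 3 counts per library, which gives a lower bound, and ratios to groups whose libraries held at most 3 reads each are given with a 95% counting interval. Such intervals and floors cover counting error only.

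The HoxB members and all gene lists were chosen with earlier results of these data known. Up to 4 examples of each list were named by the highest mean CPM over all libraries. Transcripts in the cluster and the 3 nearest coding genes at each end were given in full, and genes most like Hoxb4, Hoxb8 and Hoxb13 were taken among genes whose group means span at least 2 log2 units. Comparisons across sets other than the differences of differences were added after seeing the data. Alternatives were DESeq2 1.42.0, upper-quartile and RLE scaling, no filter, a mean count of at least 100, only the groups compared, no limit on the fold change, a replicate block and each replicate left out. Scripts were tested on simulated data. Samples were not paired by replicate number, except in the replicate block. Figures were drawn with matplotlib 3.10.9 in Python 3.11.15. Values of some genes on the lists are not reported here.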

Additional observations from a re-analysis of the deposited data

Results flagged for a closer look

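Differences between groups under the same contrast were listed for 18 HoxB values, each from a direct test of the difference with edgeR. Groups of 2 or 3 libraries are too small for a test of single outlying samples.

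Tail-pNSC and Lung-pNSC, both set against Brain-NSC, differed for 7 members. Lung-pNSC was at 0, so that the folds are lower bounds: Tail-pNSC was at least 165.2-fold higher for Hoxb9, 60.84-fold for Hoxb13, 36.24-fold for Hoxb8, 4.352-fold for Hoxb4, 2.552-fold for Hoxb3, 1.851-fold for Hoxb2 and 1.754-fold for Hoxb7. The last 4 rested on 2 to 14 reads per Tail-pNSC library.

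Tail pNSCs and DRG pNSCs of the Wnt1Cre-mTmG set, both set against their brain NSCs, differed 64.26-fold for Hoxb9 and 113.6-fold for Hoxb13. Both were higher in Tail pNSCs in all 3 libraries.

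Wnt1Cre-mTmG Tail pNSCs and Tail-pNSC, both set against Tail, differed for 9 members. The former were 70.01-fold higher for Hoxb5, at least 61.02-fold for Hoxb6, 46.39-fold for Hoxb7, 15-fold for Hoxb8, 11.98-fold for Hoxb4, 10.79-fold for Hoxb3, 8.636-fold for Hoxb2, 5.509-fold for Hoxb13 and 3.202-fold for Hoxb9. Against Tail, Hoxb8 was thus higher in one group of tail pNSCs (11.4-fold) and lower in the other (1.31-fold). The set and the line differ together between these groups and cannot be told apart.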

How the results depend on the processing

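Recomputed under another setting, 141 counts of called members stayed within 1.5 times the value given and 19 did not, and with a library left out 110 did and 2 did not. Fewer genes pass the filter when only the 2 groups compared are fitted: 4 members were called in Tail-pNSC against Brain-NSC and 4 against Lung-pNSC, and 1 in Sox2-GFP lung pNSCs against brain NSCs. With a mean count of at least 100, fewer members were tested: 3 were called in Tail-pNSC against Brain-NSC, 3 against Lung-pNSC, 3 against Tail, 1 in Lung-pNSC against Lung, 3 in Tail against Lung, 5 in DRG NCSCs against brain NSCs, 1 in Sox2-GFP lung pNSCs against brain NSCs and 1 against Lung, 5 in Wnt1Cre-mTmG Tail pNSCs against Tail-pNSC, 1 against Tail, and 1 in Sox2-GFP brain NSCs against Brain-NSC. With no limit on the fold change, Wnt1Cre-mTmG Tail pNSCs had 4 members called against DRG pNSCs, 7 against DRG NCSCs and 8 against Tail. Over all tested genes 9417 of 14448, 12076 of 14448 and 14302 of 17393 were called there, so these member counts do not stand out. With the fold limit kept and 1 library left out, the comparison with Tail gave 2 to 4. The differences of differences against brain NSCs called 0 members with edgeR and 2 each with DESeq2, and the cause was not tested.

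Direction changed for differences near 0. Hoxb3 in Tail pNSCs against DRG pNSCs went from 0.07 to -0.0626 without DRG pNSC replicate 2 and to -0.0341 without Tail pNSC replicate 3, up to 0.1919 without DRG pNSC replicate 1. Hoxb5 in DRG pNSCs against DRG NCSCs went from 0.03 to -0.0343 with DESeq2, -0.0087 with no filter, -0.0192 with RLE scaling and between -0.1828 and 0.2210 with a library left out. Hoxb3 between Sox2-GFP and Wnt1Cre-mTmG brain NSCs ranged from -0.2672 to 0.6123 with a library left out, and Hoxb7 in Wnt1Cre-mTmG Tail pNSCs against Tail was -0.0421 with the stricter filter. None of these passed the test.

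The replicate block gave the same counts of called members as the fit without it in all 20 comparisons (7 in Tail-pNSC against Brain-NSC, for instance). Deviations of libraries with the same number correlated at -0.02 to 0.03. These values gave no sign of pairing by number, but with so few libraries per group they cannot exclude shared mice. Over all genes, 1377 to 9327 were called in the 18 comparisons of group pairs, 679 to 5803 with the stricter filter and 6634 to 14736 with no limit on the fold change. Depth limits statements on Hoxb1 to Hoxb7 in Tail-pNSC and the brain NSCs, where each of these members had at most 18 reads per library.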
